A study of Drosophila melanogaster with 24 samples.

Results

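The 6 receptor genes described here are Ir21a, Ir93a, Ir40a, Ir68a, Ir64a and Gr28b of Drosophila melanogaster, the sensory receptors known for the arista and the sacculus of the antenna. They were taken by name from a table of 13409 genes, each gene represented by the annotated transcript with the highest total count over all libraries, and all 6 had enough counts in some libraries to enter the test across 10993 genes. The study followed polyA RNA over 4 stages: imaginal discs of wandering larvae, antennae at 8 h and at 40 h after puparium formation, and adult antennae. At each stage it compared homozygous rotund mutants (w[1118];;rn[tot]/rn[tot], here mutant), flies with the same allele over a balancer chromosome (w[1118];;rn[tot]/TM6, here heterozygote) and flies with the w[1118] allele but neither of these (w[1118];;+/+, here wild type), with 2 libraries in each of the 12 groups. The heterozygote therefore differed from wild type in its TM6 chromosome as well as in rn, and the larval disc differed from the later samples in tissue as well as in stage. Beyond the w[1118] allele the labels do not give the background of the stocks. Other differences between the rn stocks and wild type therefore cannot be told apart from rn. Nothing in the labels ties the 2 libraries of a group to different animals, and p-values may then measure no more than technical spread.

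The arista is the feather-like shaft of the antenna and carries thermosensory neurons. The sacculus is a chambered pit inside the third antennal segment, with sensilla that respond to humidity, temperature and acids. Most of their receptors are ionotropic receptors (IRs), relatives of ionotropic glutamate receptors that work as complexes of a tuning subunit with broadly expressed coreceptors such as Ir25a and Ir8a. Ir21a and Ir93a act with Ir25a in cooling-responsive cells of the arista, Ir93a also acts with Ir40a in dry-responsive cells and with Ir68a in moist-responsive cells of the sacculus, Ir64a acts with Ir8a in acid-responsive cells of the sacculus, and Gr28b encodes several gustatory receptor isoforms, of which isoform D acts in warmth-responsive cells of the arista. The rotund gene (rn) codes for a zinc-finger protein that regulates transcription and is needed for the diversity of olfactory neurons.

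Levels are given as counts per 1000000 (CPM) after scaling for library composition, and changes are log2 differences from 1 edgeR quasi-likelihood fit over all 24 libraries, with their standard error (SE) and Benjamini-Hochberg adjusted p over all 10993 genes. A gene passed where its adjusted p was below 0.05. A member was tested in a comparison only where at least 1 of the groups averaged 1 CPM or more. Library totals over genes lay between 8060181 and 15123603 counts. Antennal RNA from bulk tissue cannot separate fewer cells of a type from less RNA per cell.

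rn itself was counted in all genotypes, so its mRNA was no check of the genotype labels. It had 74.7 and 68.7 CPM in mutant larval discs, 48.1 and 51.1 CPM in heterozygous discs and 42.7 and 43.7 CPM in wild-type discs, and the effect of the rn[tot] lesion on the transcript is not described in the labels. At 8 h it had 48.8 and 44.6 CPM in mutants, 73.9 and 82.2 CPM in heterozygotes and 127.3 and 79.3 CPM in wild type, with the mutant libraries below all others. By 40 h the mean of rn was 1.88 CPM in mutants, 3.56 CPM in heterozygotes and 2.58 CPM in wild type. The 2 wild-type libraries at 8 h stood further apart than those of any other group, with 3.82% and 1.47% of counts from mitochondrial genes. Olfactory neuron markers (Orco, Or22a, Or47b and Or83c) summed to 1660 to 2029 CPM in adult mutant antennae, 2234 to 2422 CPM in heterozygous and 2584 to 2631 CPM in wild-type antennae, which fits the labelled tissue. Most of this sum was Orco, at 1512 and 1838 CPM in mutants and 2473 and 2428 CPM in wild type. Or22a was also lower in mutants. Or47b went the other way, at 88.5 and 122.6 CPM in mutants and 70.1 and 70.8 CPM in wild type. So did Or83c, at 13.2 and 12.9 CPM against 8.87 and 11.8 CPM. Markers of other tissues were uneven between adult replicates. Eye markers (ninaE, Rh3, Rh4 and trp) summed to 2.08 and 99.8 CPM in the heterozygous libraries. Fat body markers (Lsp2, Fbp1 and Yp1) summed to 264.5 and 37.4 CPM in the mutant libraries. Their part in the adult receptor values was not tested.

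Of the 6 receptor genes, 5 had their highest mean in the adult in every genotype. Of these, Ir21a in wild type already stood at 47.5% of its adult mean at 40 h. Ir21a, Ir93a, Ir40a, Ir64a and Gr28b were higher in the adult than in the 40 h antenna in every genotype, whereas Ir68a was lower in adult mutants and adult wild type. Passing genes therefore numbered 6 of 6 in mutants, 5 of 6 in heterozygotes and 6 of 6 in wild type, where 55%, 54.7% and 54.6% of all tested genes passed in the same steps. Higher in the adult were 29.3%, 28.8% and 28.8% of all tested genes, against 5 of the 6 receptor genes in each genotype. With another scaling (the median-ratio factors) the median of all genes in the mutant step moved by 0.151 on the log2 scale, and no receptor gene turned direction under it.

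**Figure D1:**
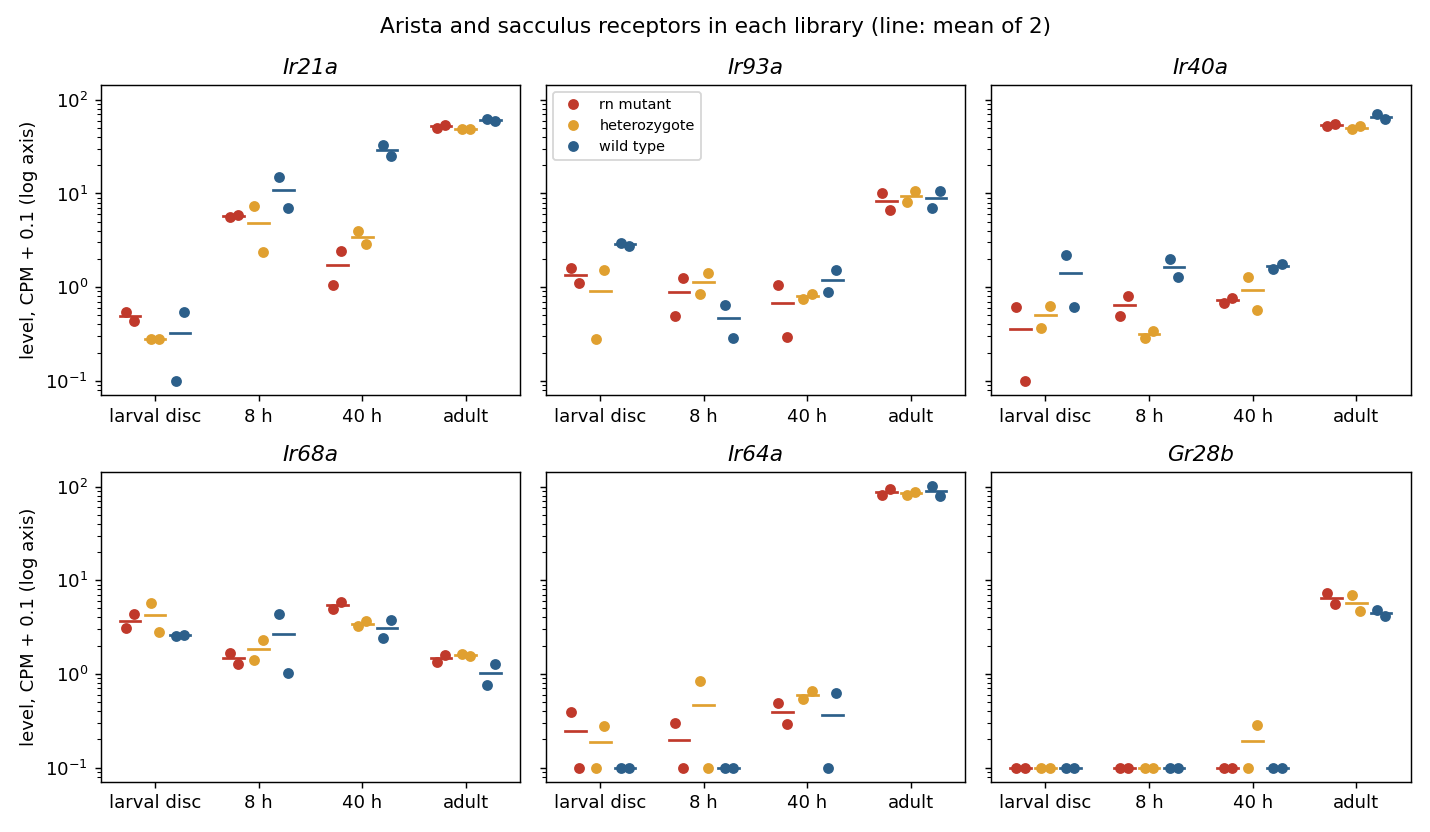
CPM of the 6 receptor genes in each of the 24 libraries, by stage from larval disc to adult antenna and within a stage from mutant through heterozygote to wild type. Points are libraries, lines are the means of 2, and the log axis shows CPM plus 0.1 so that libraries at 0 appear. Only Ir21a shows a wide gap between genotypes at 40 h, and in the adult the 3 genotypes lie close together for all 6 genes.

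Ir21a, the tuning subunit of the cooling receptor, is a single-transcript gene at 2L:21823-25155 on the minus strand (Ensembl BDGP6 annotation; FBgn0031209), with 5 exons and 2629 transcript bases. In the larval disc it was near 0, with 0.445 and 0.338 CPM in mutants, 0.179 and 0.178 CPM in heterozygotes and 0 and 0.445 CPM in wild type. At 8 h it had 5.53 and 5.82 CPM in mutants, 7.24 and 2.27 CPM in heterozygotes and 14.8 and 6.98 CPM in wild type. The step between larva and 8 h passed in each genotype, by 3.81 ± 0.66 log2 (SE) in mutants, 4.64 ± 0.78 in heterozygotes and 5.39 ± 0.70 in wild type (edgeR adjusted p = 0.000318, 0.000238 and 1.39e-05). Of the 3, 3 and 4 receptor genes tested in these steps, 1, 1 and 2 passed, where 26.7%, 29.6% and 39.3% of all genes did. The second gene in wild type was Ir93a.

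Wild type stood apart from the other genotypes at 40 h. At 40 h Ir21a had 0.966 and 2.31 CPM in mutants, 3.90 and 2.79 CPM in heterozygotes and 32.6 and 25.1 CPM in wild type. These are 10 and 24 counts in mutants, 36 and 30 counts in heterozygotes and 334 and 282 counts in wild type. Every wild-type library lay far above every library of the other genotypes, and the mutant libraries lay below the heterozygous ones.

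Against wild type, Ir21a was lower in the 40 h mutant by 4.13 ± 0.54 log2 (95% interval of the change -5.27 to -2.99, edgeR adjusted p = 0.000349). In the 40 h heterozygote the change against wild type was -3.11 ± 0.50 (-4.16 to -2.06, edgeR adjusted p = 0.00304). Both calls held with every replicate left out in turn, at an adjusted p of at most 0.0163 for the mutant and 0.0463 for the heterozygote over all alternatives. Mutant and heterozygote did not pass when set against each other, with a log2 change of -1.02 ± 0.57 (-2.23 to 0.20, unadjusted p = 0.0947, edgeR adjusted p = 1). Ir21a was the 1 receptor gene of 4 tested that passed in the mutant and the 1 of 4 in the heterozygote, where 1.29% and 1.02% of all genes passed. None of the 2 tested between mutant and heterozygote passed, with 0.0819% of all genes passing there. Both comparisons with wild type share the same 2 wild-type libraries.

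In the adult the gap was no longer seen. Adult Ir21a was 50.3 and 54.3 CPM in mutants, 48.6 and 48.4 CPM in heterozygotes and 62.2 and 59.3 CPM in wild type. Wild-type libraries were still the highest and the groups did not overlap, but the log2 changes were -0.22 for mutant against wild type (95% interval -1.11 to 0.68), 0.11 for mutant against heterozygote (-0.785 to 1.001) and -0.33 for heterozygote against wild type (-1.22 to 0.57), and none passed (edgeR adjusted p = 0.997 for the mutant against wild type). The mutant change against wild type differed between adult and 40 h by 3.91 ± 0.68 log2 (2.48 to 5.35, edgeR adjusted p = 0.0106). Here 1 of the 5 receptor genes tested passed, where 0.746% of all genes did. That call was lost without the first wild-type library at 40 h (adjusted p = 0.0515), the first mutant library at 40 h (0.0793) or either adult wild-type library (0.0559 and 0.0623), while the difference itself stayed between 3.42 and 4.67. The same difference for heterozygote against wild type was 2.79 ± 0.64 and did not pass (adjusted p = 0.109); it passed with DESeq2 (0.0111) and with a fit of the compared stages only (0.00303). None of the 5 receptor genes passed for the heterozygote or for mutant against heterozygote, where 0.218% and 0.0455% of all genes did.

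**Figure D2:**
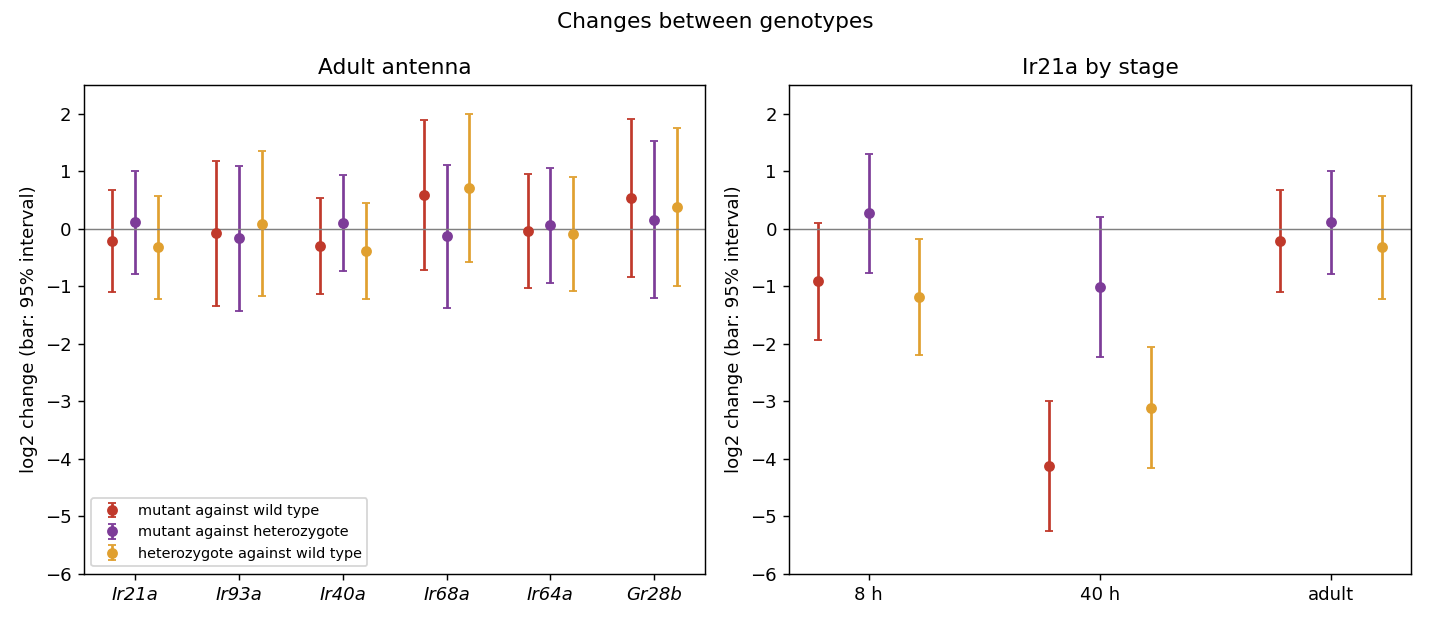
Log2 changes between genotypes with 95% intervals from the edgeR fit, on the left for the 6 receptor genes in the adult antenna and on the right for Ir21a at 8 h, 40 h and in the adult. In the adult all 18 intervals span 0; at 40 h the intervals of Ir21a against wild type lie between -5.27 and -2.06.

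As a share of its own adult mean, Ir21a stood at 10.9% in mutants, 9.80% in heterozygotes and 17.9% in wild type at 8 h, and at 3.13%, 6.89% and 47.5% in the same genotypes at 40 h. Between 8 h and 40 h Ir21a was lower at 40 h in mutants by 1.79 ± 0.55 log2 (edgeR adjusted p = 0.0119; -1.29 and 0.126 without the first mutant library at 40 h) and higher in wild type by 1.43 ± 0.45 (adjusted p = 0.0132). The wild-type call was lost with a fit of the compared stages only (0.0526), without the second 8 h library (0.0862) or without the first 40 h library (0.0825). The heterozygote's change of -0.50 ± 0.51 did not pass (adjusted p = 0.429), and the difference of this step between genotypes was not tested. Between 40 h and adult Ir21a was higher by 4.99 ± 0.54 log2 in mutants (adjusted p = 7.87e-07) and by 3.86 ± 0.50 in heterozygotes (5.89e-06). In wild type the corresponding 1.08 ± 0.43 (adjusted p = 0.0436) passed narrowly and was lost with any of the 4 libraries left out (adjusted p from 0.0872 to 0.218).

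At 8 h the Ir21a groups were not told apart. Mutant libraries lay within the range of the heterozygous ones and below both wild-type libraries, whose own values differed by more than the distance between the lower of them and the mutants. The log2 change was -0.92 in mutants against wild type (edgeR adjusted p = 0.236), 0.27 in mutants against heterozygotes and -1.19 in heterozygotes against wild type (0.145). Without the second wild-type library these became -1.38 (0.0296) for the mutant and -1.65 (0.011) for the heterozygote, and without the first the mutant value was -0.30. No receptor gene passed at 8 h in the 3 comparisons, of 3 tested for mutant against wild type, 3 for mutant against heterozygote and 4 for heterozygote against wild type, where 3.36%, 0.091% and 3.94% of all genes passed. At an unadjusted p below 0.05 the counts were 0, 0 and 2, and with DESeq2 1 gene, Ir40a, passed for heterozygote against wild type.

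An annotated antisense RNA, asRNA:CR43609 (2L:21952-24237, plus strand), shares 2087 exon bases with Ir21a, 79.4% of the Ir21a transcript. It was not analysed here, and although the library kit marks strand, the strand setting used in counting is not given in the sources used here, so reads of the sense and antisense RNA cannot be told apart in these values. The neighbouring protein genes lie within 447 bases of Ir21a on either side. At 40 h l(2)gl, a cell polarity gene, averaged 41.6 CPM in mutants, 41.0 CPM in heterozygotes and 46.8 CPM in wild type, and did not pass in any genotype comparison. Cda5, a chitin deacetylase gene, averaged 74.9 ± 5.31, 84.8 ± 37.0 and 72.3 ± 4.11 CPM (SD, n = 2 each) in the same order at 40 h and did not pass. In the adult it was at 16.0 ± 5.52 CPM in mutants, 18.6 ± 2.39 in heterozygotes and 62.5 ± 3.16 in wild type, and was lower than wild type in both (log2 change -1.96, edgeR adjusted p = 0.00281 for the mutant; -1.75, 0.00871 for the heterozygote). In the larval disc Cda5 was also lower, with 1.93 and 1.95 CPM in mutants, 3.32 and 1.34 CPM in heterozygotes and 13.2 and 13.4 CPM in wild type (log2 change against wild type -2.78, adjusted p = 0.000738 for the mutant; -2.51, 0.00218 for the heterozygote).

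Other cell type markers at 40 h were as follows. Pan-neuronal genes summed to 1490 to 1683 CPM in mutants, 1331 to 1687 CPM in heterozygotes and 1535 to 1540 CPM in wild type, and none of their 10 genes passed between genotypes. The 3 Johnston's organ neuron markers, nompC, iav and nan, gave 55.0 to 68.7, 49.6 to 59.99 and 48.4 to 56.8 CPM for mutant, heterozygote and wild type. Glial markers (repo, moody, Gs2 and nrv2) gave 241.6 to 246.9, 219.9 to 250.8 and 231.9 to 259.5 CPM in that order. The sums of some lists moved with Ir21a. The hemocyte markers Hml, NimC1 and Pxn summed to 30.39 to 30.42 CPM in mutants, 34.3 to 36.1 in heterozygotes and 54.8 to 60.4 in wild type. Most of this sum was Pxn, at 24.2 and 24.6 CPM in mutants and 50.6 and 56.9 CPM in wild type. NimC1 went the other way, at 5.02 and 4.62 CPM in mutants, 6.28 and 4.64 in heterozygotes and 1.955 and 0.799 in wild type. The fat body markers Lsp2, Fbp1 and Yp1 summed to 28.1 to 32.9, 36.4 to 41.9 and 43.6 to 48.3 CPM for mutant, heterozygote and wild type. Most of this sum was Lsp2, at 22.2 and 16.5 CPM in mutants and 30.8 and 30.6 CPM in wild type. Fbp1 did not keep this order, at 10.5 and 11.4 CPM in mutants, 16.8 and 6.78 in heterozygotes and 12.6 and 17.4 in wild type. Yp1 was near 0 in all genotypes and highest in heterozygotes, at 0.325 and 0.371 CPM. None of the 6 hemocyte and fat body genes was at 0 or passed at 40 h, and their part in the Ir21a result was not tested.

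Ir93a, the subunit shared by the cooling and humidity receptors, lies at 3R:20851709-20859945 on the minus strand (FBgn0259215; 11 exons, 2742 transcript bases), 13.5 Mb from rn on the same arm. Adult antennae held 9.97 and 6.61 CPM in mutants, 8.06 and 10.6 CPM in heterozygotes and 6.98 and 10.6 CPM in wild type, so the genotypes overlapped. At 40 h no library exceeded 1.42 CPM, with 0.966 and 0.192 CPM in mutants, 0.650 and 0.743 in heterozygotes and 0.782 and 1.42 in wild type. The step to the adult was 3.82 ± 0.74 log2 in mutants, 3.72 ± 0.73 in heterozygotes and 2.97 ± 0.69 in wild type (edgeR adjusted p = 0.000363, 0.000384 and 0.00155).

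Ir93a also had reads in the larval disc. Mutant discs had 1.48 and 1.01 CPM, heterozygous discs 0.179 and 1.43 CPM and wild-type discs 2.84 and 2.67 CPM. At 8 h it was at 0.395 and 1.16 CPM in mutants, 0.742 and 1.30 CPM in heterozygotes and 0.546 and 0.184 CPM in wild type, lower than the disc in wild type by 2.98 ± 0.84 log2 (edgeR adjusted p = 0.0104; -2.31 and 0.0687 without the second 8 h library). Wild-type discs lay above those of the other genotypes without any change passing: for heterozygote against wild type it was -1.76 (adjusted p = 0.313), -3.86 (0.0371) without the second heterozygous disc library and -0.94 (1) without the first.

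Ir40a, the dry receptor subunit, lies at 2L:22189526-22214376 on the minus strand (FBgn0259683; 7 exons and 2368 bases in transcript RF). No library before the adult exceeded 2.08 CPM. Adult levels were 52.5 and 55.0 CPM in mutants, 48.9 and 51.8 CPM in heterozygotes and 69.7 and 62.6 CPM in wild type, against 0.579 and 0.673, 1.19 and 0.464, and 1.47 and 1.69 CPM in the same genotypes at 40 h. The step was 6.399 ± 0.569 log2 in mutants, 5.94 ± 0.55 in heterozygotes and 5.38 ± 0.51 in wild type (edgeR adjusted p = 6.82e-08, 1.15e-07 and 1.44e-07). Whether these steps differed between genotypes was tested: the mutant change against wild type was 1.02 ± 0.77 log2 larger in the adult than at 40 h and did not pass (adjusted p = 1).

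Before the adult Ir40a was low, and wild type was the highest group at each stage. By transcript RF alone no genotype comparison passed. Summed over its 3 transcripts, which share exons so that a read may be counted more than once, Ir40a had 13 and 0 counts in mutant discs, 5 and 6 in heterozygous discs and 66 and 32 in wild-type discs. At 8 h the same sum was 8 and 8 counts in mutants, 8 and 10 in heterozygotes and 58 and 42 in wild type. The wild-type libraries lay above all others at both stages.

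With counts summed in this way, the change in the disc was -3.02 log2 for mutant against wild type (edgeR adjusted p = 0.033) and -3.10 for heterozygote against wild type (0.0318), and at 8 h it was -2.67 (0.042) and -2.85 (0.0259). By transcript RF the same 4 changes were -2.14, -1.61, -1.47 and -2.74, with adjusted p of 0.261, 0.37, 0.21 and 0.0667. The wild-type discs differed in RF, with 22 and 7 counts, and with 1 library left out in turn the disc changes by RF ranged between -6.85 and -0.90 for mutant against wild type (-0.90 without the first wild-type library, -6.85 without the first mutant one) and between -2.34 and -0.36 for heterozygote against wild type (-0.36 without the first wild-type library). Transcripts RE and RG held 22.1% and 22.2% of the adult counts of the gene and RF 55.7%, and at 8 h each of the 3 was higher in both wild-type libraries than in any other. At 40 h the sums were 10 and 14 counts in mutants, 13 and 5 in heterozygotes and 26 and 30 in wild type. Of the receptor genes tested in the disc by their main transcripts (3 for mutant against wild type, 2 for mutant against heterozygote and 3 for heterozygote against wild type), none passed, where 1.54%, 0.164% and 1.86% of all genes did. At an unadjusted p below 0.05 the counts were 1, 0 and 2, and none passed with DESeq2.

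**Figure D3:**
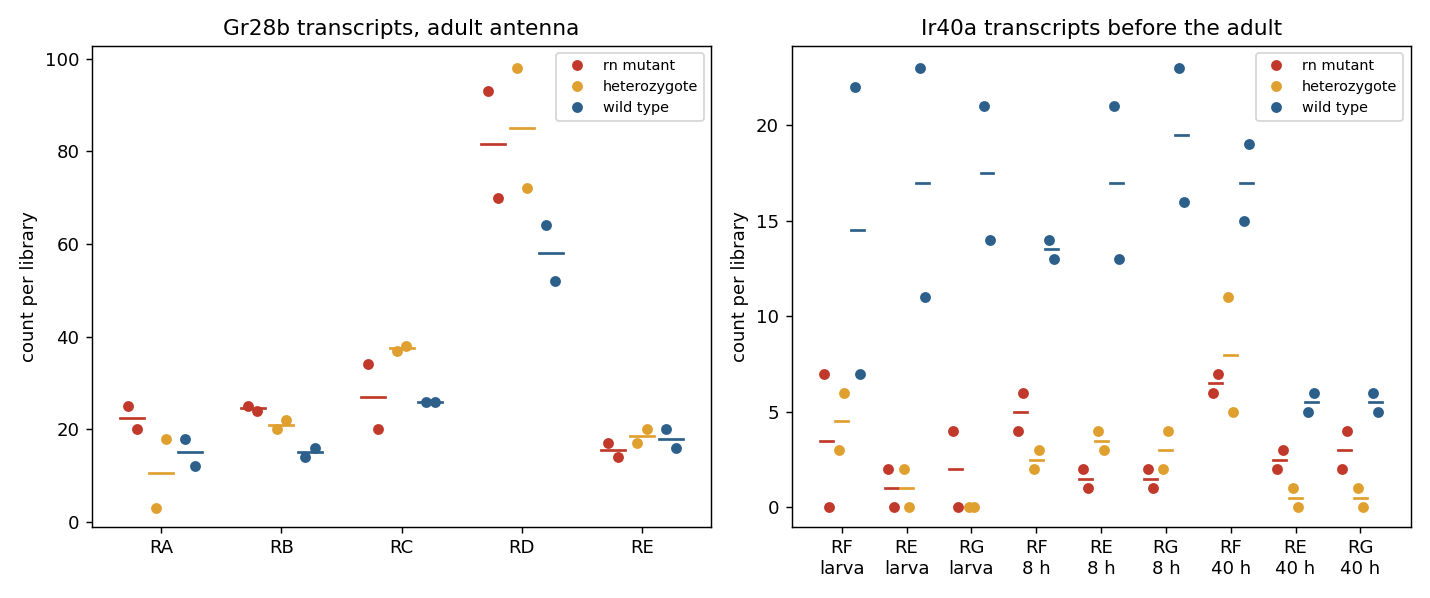
Raw counts per library of the 5 Gr28b transcripts in the adult antenna (left) and of the 3 Ir40a transcripts before the adult (right). Points are libraries and lines are means of 2 for mutant, heterozygote and wild type. Gr28b-RD is the highest Gr28b transcript in each genotype. The Ir40a counts of wild type stand above those of the other genotypes for RE and RG in the larva. At 8 h and at 40 h they do so for all 3 transcripts, with low counts at 40 h.

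Ir68a, the moist receptor subunit, went the other way. It lies at 3L:11232972-11236218 on the minus strand (FBgn0036150; 7 exons, 2443 bases in RA) and has 2 nearly identical transcripts that took 50.7% and 49.3% of its adult counts, so the choice between them was arbitrary. In the larval disc it had 2.97 and 4.23 CPM in mutants, 5.65 and 2.67 CPM in heterozygotes and 2.46 and 2.52 CPM in wild type. At 8 h the values were 1.58 and 1.16, 1.30 and 2.19, and 4.23 and 0.918 CPM in the same order of genotypes. At 40 h they were 4.83 and 5.77 CPM in mutants, 3.14 and 3.53 CPM in heterozygotes and 2.35 and 3.64 CPM in wild type.

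The adult group means of Ir68a were the lowest of the 4 stages in each genotype, with single libraries overlapping those of 8 h, at 1.23 and 1.495 CPM in mutants, 1.53 and 1.45 CPM in heterozygotes and 0.654 and 1.16 CPM in wild type. The 40 h level was 389.4% of the adult one in mutants, 223.9% in heterozygotes and 329.2% in wild type. The step to the adult was -1.95 ± 0.58 log2 in mutants (edgeR adjusted p = 0.00874), -1.16 ± 0.57 in heterozygotes (0.0961) and -1.72 ± 0.60 in wild type (0.0237). The mutant call was lost without the first adult mutant library (0.0647), and the wild-type call without the second 40 h library (0.147) or the first adult library (0.167). In the mutant the preceding step between 8 h and 40 h was 1.93 ± 0.59 log2 (adjusted p = 0.0109), a call lost without the second 8 h library (0.0792) or the second 40 h library (0.0506). In the steps between 8 h and 40 h, 2 of 2 receptor genes tested passed in mutants (Ir68a higher and Ir21a lower), 0 of 3 in heterozygotes and 1 of 4 in wild type (Ir21a higher), where 53.9%, 53.7% and 54.8% of all genes passed.

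Ir64a, the acid receptor subunit of the sacculus, lies at 3L:5378786-5382821 on the minus strand (FBgn0035604; 8 exons, 2580 bases). No library before the adult had more than 0.742 CPM of it. At 40 h it had 0.386 and 0.192 CPM in mutants, 0.433 and 0.557 CPM in heterozygotes and 0 and 0.533 CPM in wild type. In the adult it had 81.9 and 93.5 CPM in mutants, 81.9 and 86.8 CPM in heterozygotes and 101.8 and 78.3 CPM in wild type, with the wild-type pair enclosing all other libraries. The step was 8.19 ± 0.76 log2 in mutants, 7.37 ± 0.71 in heterozygotes and 8.29 ± 0.76 in wild type (edgeR adjusted p = 3.62e-07, 5.63e-07 and 3.09e-07), the widest of the 5 ionotropic receptors in each genotype.

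Gr28b, the gustatory receptor gene, lies at 2L:7454826-7462247 on the minus strand (FBgn0045495) and has 5 transcripts with separate first exons. Its most counted transcript was RD (3 exons, 1505 bases), the isoform known for warmth sensing in the arista. RD had 0 counts in 17 of the 18 libraries before the adult and 2 counts in 1 heterozygous library at 40 h. Adult antennae had 93 and 70 counts of RD in mutants, 98 and 72 in heterozygotes and 64 and 52 in wild type, which is 7.13 and 5.51, 6.81 and 4.54, and 4.65 and 4.04 CPM.

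Against a floor of 3 counts over the 2 libraries of a group at 40 h, adult RD was 43.8-fold higher in mutants and 31.2-fold higher in wild type. Mates of a pair were counted singly, so 3 counts are fewer than 3 fragments and these folds are not lower bounds. In heterozygotes the ratio was 56.2 (95% counting interval 15.3 to 467.8). The step passed in each genotype (edgeR adjusted p = 0.000272, 0.000701 and 0.000425 for mutant, heterozygote and wild type), and the heterozygous call was lost with DESeq2 (0.0831). Over the 6 adult libraries RD held 47.2% of the counts of Gr28b, between 42.4% and 56% in single libraries, followed by RC with 19.0%, RB with 12.7%, RE with 10.9% and RA with 10.1%. RD was the highest transcript in all 3 genotypes, with 163 counts in mutants, 170 in heterozygotes and 116 in wild type.

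In the adult antenna, 0 of the 6 receptor genes passed for mutant against wild type, mutant against heterozygote or heterozygote against wild type, where 3.08%, 0.291% and 1.82% of all genes did; 0 had an unadjusted edgeR p below 0.05 and 0 passed with DESeq2. Log2 changes lay between -0.30 (Ir40a) and 0.58 (Ir68a) for mutant against wild type, between -0.17 and 0.16 for mutant against heterozygote and between -0.39 and 0.71 for heterozygote against wild type. The smallest unadjusted p for mutant against wild type was 0.36, that of Ir68a, and none of the 10 alternatives per gene brought an adult genotype comparison past the threshold. The outer bounds of the 95% intervals were -1.34 and 1.91 for mutant against wild type, and each gene's own interval gives the changes that its 2 libraries a group leave possible. The narrowest interval for mutant against wild type was that of Ir40a, from -1.13 to 0.53.

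Per kilobase of the transcript used, the receptor genes ranked the same way in adult mutant and heterozygous antennae and with 1 exchange in wild type. These values cover 1 transcript of each gene. That transcript held 47.2% of the adult counts of Gr28b, 55.7% of those of Ir40a and 50.7% of those of Ir68a. The ranks may therefore depend on the choice of transcript. Ir64a averaged 34.0, 32.7 and 34.9 CPM per kb in mutants, heterozygotes and wild type, Ir40a 22.7, 21.3 and 27.9, and Ir21a 19.9, 18.5 and 23.1. Gr28b, by RD alone, averaged 4.20, 3.77 and 2.89 CPM per kb and Ir93a 3.02, 3.40 and 3.20. By these values the 2 exchanged places in wild type, with overlapping libraries in heterozygotes and in wild type. Ir68a was the lowest, at 0.557, 0.610 and 0.372 CPM per kb. Ir93a, which is needed by both the arista and the sacculus receptors, was thus several times lower than Ir21a and Ir40a in every genotype.

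The partners of these receptors gave other values in the adult. Ir25a, the coreceptor of the cooling and humidity receptors, had 156.1 and 193 CPM in mutants, 277.6 and 267.1 CPM in heterozygotes and 377.1 and 358.7 CPM in wild type. The 3 genotypes did not overlap, and against wild type Ir25a was lower in mutants by 1.08 ± 0.28 log2 (edgeR adjusted p = 0.048), while the changes against the heterozygote (-0.64, adjusted p = 1) and of the heterozygote against wild type (-0.43, 0.859) did not pass. At 40 h Ir25a already had 46.4 and 69.0 CPM in mutants, 71.3 and 73.1 CPM in heterozygotes and 112.7 and 106 CPM in wild type, a log2 change of -0.92 in mutants against wild type that did not pass (adjusted p = 0.187). Ir8a, the coreceptor of Ir64a, averaged 118.3 CPM in mutants, 107.2 CPM in heterozygotes and 138.3 CPM in wild type and did not pass.

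Of 10 receptors of the coeloconic sensilla, the other IR-bearing organs of the antenna, 4 were lower in the adult mutant than in wild type. None was higher, and 3.08% of all tested genes passed in either direction. The 4 were Ir92a (0.936 CPM in mutants, 16.3 in heterozygotes, 20.4 in wild type), Ir84a (2.34, 18.9 and 18.3 CPM in that order), Ir31a (46.4, 88.8 and 136.5) and Ir75d (62.3, 108.3 and 131.4). Their log2 changes for mutant against wild type were -4.43, -2.96, -1.56 and -1.08 (edgeR adjusted p = 0.00469, 0.0107, 0.00324 and 0.04). The median log2 change was -0.71 over the 10 coeloconic genes and -0.06 over the 6 arista and sacculus genes, beside -0.002 over all genes tested. Whether the 2 lists differed was not tested. Against heterozygotes 1 coeloconic gene, Ir92a, was lower (-4.11, edgeR adjusted p = 0.0337), where 0.291% of all tested genes passed. At 40 h none of the 10 passed in any genotype comparison. Of all tested genes, 1.29% passed there for mutant against wild type, 0.0819% for mutant against heterozygote and 1.02% for heterozygote against wild type.

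**Figure D4:**
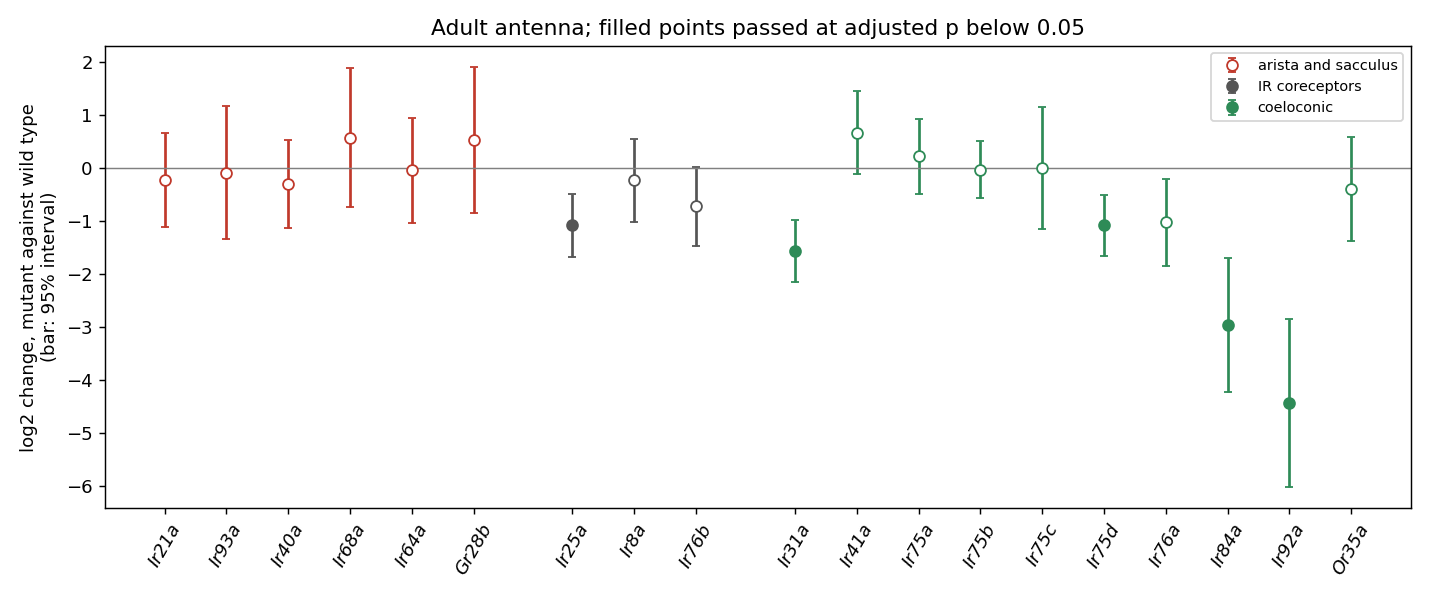
Log2 change of mutant against wild type in the adult antenna with its 95% interval for the 6 arista and sacculus receptors, the 3 IR coreceptors and the 10 coeloconic receptors; filled points had an edgeR adjusted p below 0.05. The filled points are Ir25a, Ir31a, Ir75d, Ir84a and Ir92a, and the first 6 points are all open.

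Other temperature and humidity genes numbered 8, of which 7 were in the fit and brv2 was not analysed here. None passed between genotypes at 40 h or in the adult. Obp59a, an odorant-binding protein gene needed for humidity sensing, averaged 1224 CPM in adult mutants, 1011 CPM in heterozygotes and 931.3 CPM in wild type, and brv1, a TRP channel gene of cooling-responsive cells, 0.547, 0.931 and 1.34 CPM. Between 40 h and adult 5 of the 7 were higher and 2 lower in mutants, and 4 higher and 2 lower in each of the other genotypes. Of all tested genes, 55% passed in this step in mutants, 54.7% in heterozygotes and 54.6% in wild type. The shares that were higher were 29.3%, 28.8% and 28.8% in the same order. Obp59a had 2.65, 2.95 and 1.59 CPM at 40 h in mutants, heterozygotes and wild type, and its step to the adult was 8.84, 8.41 and 9.17 log2 (edgeR adjusted p = 1.55e-10, 2.28e-10 and 1.32e-10).

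The gene lists around the receptors were also compared between 40 h and adult. Of all tested genes, 55% passed in this step in mutants, 54.7% in heterozygotes and 54.6% in wild type. Higher in the adult were 29.3%, 28.8% and 28.8% in the same order, and no list was tested against these shares. IR coreceptors were higher in the adult than at 40 h for 3 of 3 genes in each genotype, coeloconic receptors for 9 of 10 in mutants and 10 of 10 in heterozygotes and in wild type (Ir84a was the exception in mutants), and pan-neuronal genes for 9 of 10 in each. The carbon dioxide receptor genes Gr21a and Gr63a, the 2 of 4 other antennal gustatory receptor genes in the fit, were higher in all genotypes and did not pass between them. Of 11 antennal patterning and proneural factors, 1 was higher and 5, 5 and 6 were lower in mutants, heterozygotes and wild type. The one that differed between genotypes in the adult was lz, a Runt-family transcription factor gene, at 0.0393 CPM in mutants, 1.54 CPM in heterozygotes and 0.941 CPM in wild type, lower in mutants than in heterozygotes (log2 change -4.95, edgeR adjusted p = 0.00189) and than in wild type (-4.26, 0.00376).

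Over the 12 group means, Pearson correlations of log2 CPM gave the genes whose course was most like each receptor; the points share library and stage, and no p is attached. Ir21a was most like CG30427 (r = 0.970) and CG30015 (0.961), with 94 genes above 0.9. Ir40a was most like sei (0.986), CG14687 (0.986) and Kif3C (0.985), with 936 genes above 0.9. For Ir64a these were Obp69a (0.998), Cyp6g1 (0.997) and Acsx2 (0.997), with 1120 genes above 0.9, and for Gr28b they were Cyp6g1 (0.998), Obp83a (0.997) and Obp19d (0.997), with 1044.

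Ir93a was most like sloth1 (0.975), sloth2 (0.974) and CG32270 (0.973), with 443 genes above 0.9, and Ir68a was most like heix (0.934), Grp170 (0.927) and CG33099 (0.922), with 19. CG32270 averaged 0.842 CPM in its highest group, adult heterozygotes, so its r rests on low values. Among the receptors themselves Ir64a and Gr28b were most alike (r = 0.992) and Ir40a lay at 0.948 and 0.964 with them. Ir21a reached at most 0.787, with Ir40a, and Ir68a was negative with each of the other 5, between -0.697 and -0.638.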

How the data were processed

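Libraries were made from polyA RNA with an Illumina stranded kit, per the labels' protocols, and CASAVA 1.8, BWA 0.7.12 and DESeq2 are named in the submitters' processing notes; no source used here gives the genome build or the strand setting of counting. The authors deposited raw counts per transcript for all 24 libraries, and a normalized table, whose values are a normalized signal equal to the deposited counts times 1 constant per library, was not used. Of 29872 transcripts, 29393 (98.7% of counts) matched the Ensembl BDGP6 annotation and gave 13409 genes, each represented by its most counted transcript, which kept 45.5% of the summed counts; 479 transcripts did not match. The design had assumed 1 value per gene. Low counts were even in 90.4% of cases between 1 and 20 in single-transcript genes, so mates of a pair were counted singly and counting intervals, which cover counting error only, are too narrow.

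Genes passing edgeR's filter (minimum count 10; 10993 genes) were fitted with TMM scaling and 1 mean for each of 12 groups (edgeR 4.0.16, R 4.3.3; 12 residual degrees of freedom, biological coefficient of variation 22.8%), and tested by quasi-likelihood with Benjamini-Hochberg adjustment at 0.05. The genes named were all 6 receptors, rn, up to 4 passing genes of each other list by smallest p, and the 3 genes most like each receptor by correlation (1 of those for Ir21a is not reported here); l(2)gl, Cda5, Obp59a, brv1 and Ir8a, and the rest of the partners' values, were chosen after their values were seen. Receptors and lists were chosen with earlier results of these data known. Alternatives were DESeq2 1.42.0, median-ratio scaling, no filter, summed transcripts, a fit of the compared stages, a replicate block, and each replicate left out. The scripts were tested on simulated data.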

Additional observations from a re-analysis of the deposited data

Results flagged for a closer look

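The change of Ir21a between mutant and wild type differed between stages. The log2 change of mutant against wild type was -4.13 at 40 h and -0.22 in the adult, and the test of the difference gave 3.91 ± 0.68 log2 (SE; edgeR adjusted p = 0.0106). The 2 mutant libraries were below both wild-type libraries at each of these stages. The call was lost in 4 of the 8 leave-one-out fits of the libraries involved, as given above. No group held more than 2 libraries, so no single library could be examined as an outlier.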

How the results depend on the processing

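The counts of receptor genes that passed changed as follows. With transcripts summed, 1 gene instead of 0 (Ir40a) passed in the larval disc and at 8 h, for both mutant and heterozygote against wild type. With DESeq2, 1 instead of 0 passed for heterozygote against wild type at 8 h and for the difference of that comparison between adult and 40 h. With only the compared stages in the fit, 0 instead of 1 passed in the wild-type step between 8 h and 40 h, and 1 instead of 0 for the difference in heterozygotes. Leaving out each replicate gave 0 to 1 for heterozygote against wild type in the disc, 0 to 2 at 8 h for mutant and for heterozygote against wild type, 1 to 2 between 8 h and 40 h in mutants, 1 to 2 between larva and 8 h in heterozygotes and in wild type, 0 to 2 between 8 h and 40 h in wild type, and 0 to 1 for the difference in mutants; between 40 h and adult it gave 5 to 6 in mutants, 5 in each fit of heterozygotes and 4 to 5, instead of 6, in wild type; a lone remaining library was assumed to vary like the other groups. The signs that turned did so in leave-one-out fits, none of them for a change that passed. At 8 h Ir68a ranged from -1.61 to 0.58 for mutant against wild type and Ir21a from -0.35 to 1.31 for mutant against heterozygote; between 8 h and 40 h Ir21a ranged from -1.12 to 0.55 in heterozygotes and Ir68a from -0.49 to 1.696 in wild type. In the adult, mutant against wild type ranged from -0.22 to 0.16 for Ir64a and from -0.41 to 0.25 for Ir93a, mutant against heterozygote from -0.50 to 0.10 for Ir93a, from -0.11 to 0.48 for Gr28b, from -0.28 to 0.006 for Ir68a and from -0.044 to 0.15 for Ir64a, and heterozygote against wild type from -0.27 to 0.11 for Ir64a and from -0.18 to 0.42 for Ir93a. Replicate numbers did not pair the samples (correlations of deviations between -0.139 and 0.089 over 10993 genes), and the replicate block within stage changed no call of a receptor gene: Ir21a at 40 h stayed at -4.12 (adjusted p = 0.00143) in mutants. Crossing the numbers of the heterozygote at 8 h, chosen after seeing the data, left 0 receptor genes passing against the mutant. Depth limited what could be seen before the adult of Gr28b (0 to 2 counts per library), Ir64a (0 to 8), Ir40a by RF (0 to 22) and Ir93a (2 to 36), and in the adult of Ir68a (9 to 23).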
